A study of Schizosaccharomyces pombe with 6 samples.

Results

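The levels of 10 genes of the fission yeast spindle pole body and of the γ-tubulin complex were compared between genotypes, out of 7269 counted features. They were chosen by name. The γ-tubulin complex core is represented by gtb1 (SPBC32F12.04.1), alp4 (SPBC365.15.1) and alp6 (SPBC428.20c.1), and its recruiter in interphase by mto1 (SPCC417.07c.1). The spindle pole body parts are pcp1 (SPAC6G9.06c.1), cut12 (SPBC649.05.1), ppc89 (SPAC4H3.11c.1) and cdc31 (SPCC1682.04.1), and the septation scaffold at the pole consists of sid4 (SPBC244.01c.1) and cdc11 (SPCC1739.11c.1). The rule names genes and holds no measured value. RNA-seq was made from vegetative haploid Schizosaccharomyces pombe, with 3 libraries from a wt control and 3 from a double mutant (the mutant below) that has the sad1.2 allele and lacks csi1. Cultures of 30 mL grew asynchronously at 30 °C in rich medium to an optical density of 0.5, and 5 µg of total RNA per library went through oligo-dT selection. The labels call the libraries of a genotype biological replicates and name neither the parent strain nor the number of strain isolates. According to the series' design text, the comparison asks whether loss of centromere clustering changes gene expression.

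The spindle pole body is the yeast counterpart of the centrosome. It sits at the nuclear envelope, nucleates microtubules through the γ-tubulin complex, holds the interphase centromeres beneath it, and in late mitosis serves as the platform from which the septation initiation network starts cytokinesis. Sad1, a SUN-domain protein of the inner nuclear membrane, and Csi1 connect centromeres to this structure, so both altered genes act where the products of the 10 genes reside.

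Total counts lay between 19074531 and 19951875 per library. The deletion showed in the csi1 transcript, at 64.1, 65.3 and 63.7 CPM (read counts scaled to a common library size) in wt and 9.36, 10.2 and 3.22 CPM in the mutant. Wt replicate 2 stood apart from the other wt libraries: a chi-square of its counts, per degree of freedom, came to 137 and 106 against wt replicates 1 and 3, and 9.68 between those. Its deviations from the wt mean went together across genes with those of mutant replicate 3 from the mutant mean (correlation 0.67 over 4941 tested features, a description). Results are therefore also given without these libraries where that matters. Markers of meiotic or sporulating cells had a summed level of 59.7 to 76.6 CPM in wt and 103 to 180 CPM in the mutant, with 7 of 7 tested markers at positive log2 fold changes; spo4, spo6 and mde2 were at 0 counts in all 6 libraries, and each shares 100% of its exonic bases with another counted feature, a class of genes mostly at 0 here (values below), so these zeros cannot be read as absence. The mating genes map1, map2 and mam2 summed to 53.3 to 65.7 CPM in wt and 67.0 to 83.0 CPM in the mutant. A second mating list (mfm1, mfm2, mfm3, mam1, map3 and M mating-type genes) summed to 69.5 to 82.8 and 90.6 to 111 CPM. The receptor gene mam2, at 47.3, 55.0 and 44.5 CPM in wt, belongs to M cells and map3 to P cells. Neither sum therefore describes a single mating type. At an edgeR adjusted p under 0.05, 2 of 7 meiotic markers were called, all higher, beside 2.29% of all features. In the first mating list 1 of 3 tested genes (map1) was called and in the second 1 of 4 (mfm1), both higher. The genotypes overlapped for the meiotic markers spo3 and isp3 (log2 fold changes 0.13 and 0.91). The same held for mam2, mam1 and map3 (log2 fold changes 0.10, 0.02 and 0.24). The genotypes also overlapped for mfm2, at 4.94, 28.9 and 17.3 CPM in wt. The M mating-type genes of the second list had 0 to 6 counts per library. The part of such cells in the results was not tested.

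None of the 10 genes was called different between the genotypes. Enough reads for the test were present in 9 of them, and 0 of 9 passed an edgeR adjusted p of 0.05. Across all features the same test called 2.41% (119 of 4941; 2.29% higher and 0.121% lower), so with 9 genes a count of 0 lies near the background and sets them apart from nothing. At an unadjusted p under 0.05 the count was also 0 of 9, against 22.6% of all features (14.5% higher and 8.12% lower). That count was 2 of 9 without wt replicate 2, 1 of 9 without mutant replicate 3 and 4 of 9 without both. Over all features the counts in these settings were 1328 of 5026, 1251 of 5014 and 1946 of 5008. Of the 9, 7 had positive and 2 negative log2 fold changes (mutant over wt), with a median of 0.04 and a range from −0.20 to 0.22; of all tested features 50.7% were positive, and their median was 0.00. In size regardless of sign, the median was 0.09 for the 9 genes, 0.17 for all tested features and 0.12 for 2170 protein-coding genes of 30 to 150 CPM in wt. In all 9 the libraries of the genotypes overlapped, whereas every mutant library lay above every wt library in 16.7% of the tested features and below in 13.8%. Of the 2170 coding genes of 30 to 150 CPM, 268 were separated upward and 270 downward, and 351 had an unadjusted edgeR p under 0.05. DESeq2 likewise called 0 of the members (9.19% of features over the whole table, 6.56% higher and 2.63% lower), and the authors' deposited table has 0 of 10 at an adjusted p under 0.05 (8.84% of features there).

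**Figure D1:**
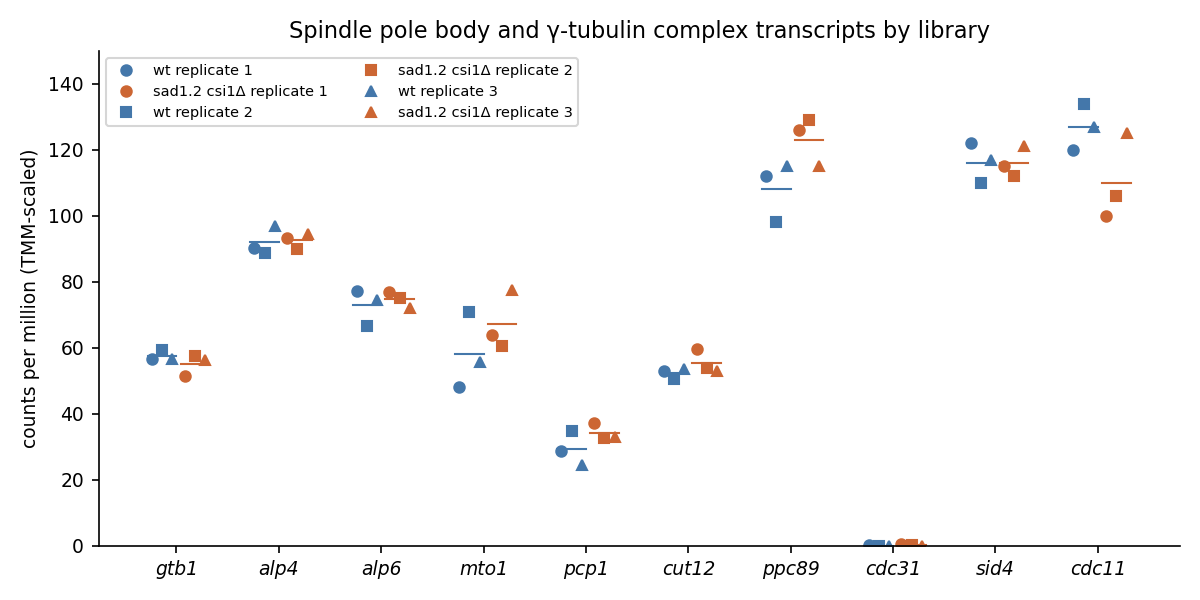
Level of each of the 10 genes in CPM (TMM-scaled library sizes) in each of the 6 libraries, with a point per library, a shape per replicate number and a short line at the mean of each genotype (n = 3). The points of the genotypes overlap for every gene, and cdc31 sits at 0 on this scale.

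The intervals show how large a change these libraries leave room for. The tested member with the fewest reads, pcp1, had 473 to 834 per library. The 95% interval of the fold (mutant over wt, edgeR) ran from 0.890 to 1.14 for alp4, from 0.891 to 1.18 for alp6, from 0.829 to 1.10 for gtb1, from 0.883 to 1.13 for sid4 and from 0.913 to 1.23 for cut12. It was wider for cdc11 (0.731 to 1.03), ppc89 (0.980 to 1.33), pcp1 (0.917 to 1.49) and mto1 (0.880 to 1.52). All 9 intervals included 1, the lowest bound was that of cdc11 and the highest that of mto1.

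**Figure D2:**
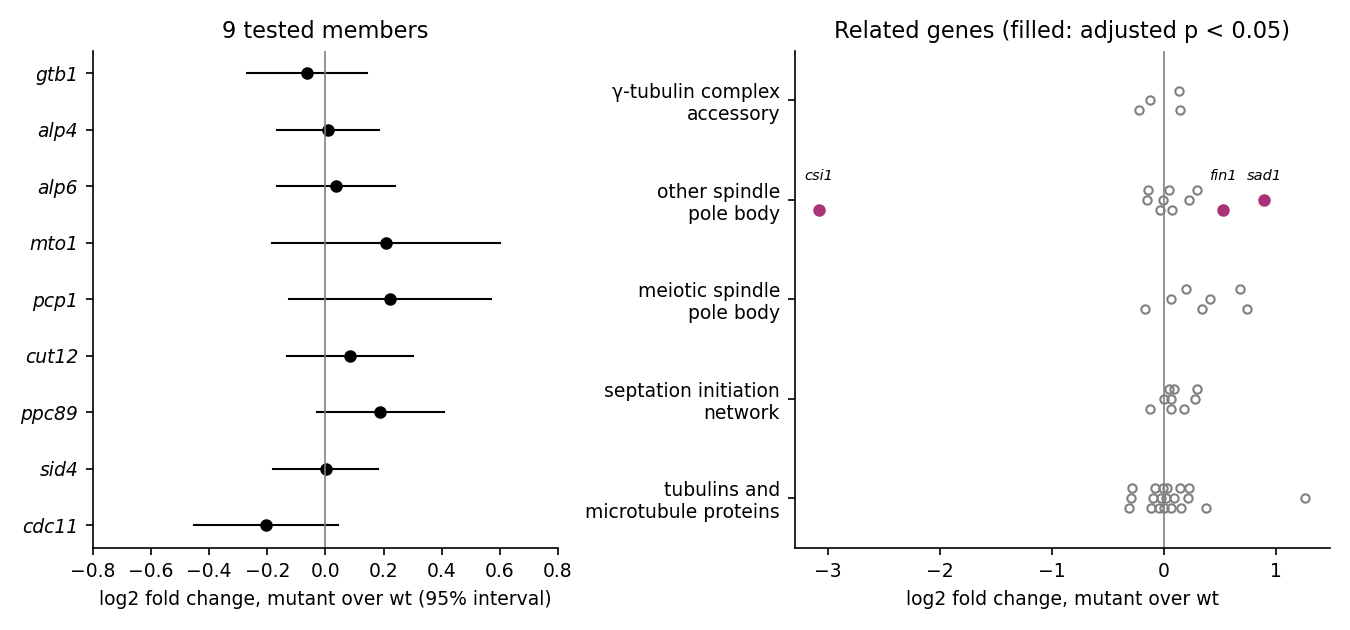
Log2 fold change of the mutant over wt. The left panel gives the 9 tested members with 95% intervals from edgeR, all of which include 0; the right panel gives each tested gene of 5 related lists, with filled points for csi1, sad1 and fin1, the genes called at an adjusted p under 0.05.

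The γ-tubulin complex core had nearly the same counts in both genotypes. In it, γ-tubulin binds to a pair of scaffold proteins, Alp4 and Alp6, which are the fission yeast members of the GCP2 and GCP3 families. The γ-tubulin gene gtb1 was at 56.6, 59.4 and 56.7 CPM in wt and at 51.4, 57.6 and 56.4 CPM in the mutant. Mutant replicates 1 and 3 lay below all wt libraries, replicate 3 narrowly, and replicate 2 lay among them (log2 fold change −0.06, SE 0.0878, edgeR adjusted p = 0.717). The GCP2 gene alp4 was at 90.3, 88.8 and 96.9 CPM in wt and at 93.1, 89.9 and 94.6 CPM in the mutant, so the mutant values lay inside the wt range (log2 fold change 0.01, SE 0.0748, edgeR adjusted p = 0.964). The GCP3 gene alp6 was at 77.2, 66.6 and 74.6 CPM in wt and at 77.0, 75.1 and 71.9 CPM in the mutant, again inside the wt range, whose lowest value was wt replicate 2 (log2 fold change 0.04, SE 0.0863, edgeR adjusted p = 0.845).

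The balance among the core transcripts was also alike. Per kb of exon length that no other counted feature shares, the ratio of alp4 to alp6 was 1.39, 1.58 and 1.54 in wt, against 1.43, 1.42 and 1.56 in the mutant. The ratio of gtb1 to alp4 was 0.904, 0.963 and 0.843 in wt, against 0.794, 0.922 and 0.858 in the mutant. Both ratios overlapped between the genotypes. Summed over the core, the level was 215 to 228 CPM in wt and 222 to 223 CPM in the mutant.

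The recruiter gene mto1 varied far more between libraries of a genotype than the core did. Mto1 brings γ-tubulin complexes to cytoplasmic sites in interphase and works in a complex with Mto2. Its level was 48.0, 70.9 and 55.6 CPM in wt and 63.7, 60.4 and 77.4 CPM in the mutant. The highest value in each genotype came from wt replicate 2 and mutant replicate 3, the libraries described above. On the log2 scale the change of 0.21 did not pass (SE 0.166, edgeR adjusted p = 0.509). It was 0.36 without wt replicate 2, 0.08 without wt replicate 1 and 0.09 without mutant replicate 3, and none of these passed. The partner gene mto2 was at 104, 104 and 107 CPM in wt and 80.3, 91.6 and 98.4 CPM in the mutant, with every mutant library below every wt library, and it did not pass (log2 −0.22, SE 0.0933, edgeR adjusted p = 0.221). The ratio of mto1 to mto2 on the unshared length was 0.214, 0.317 and 0.240 in wt, against 0.368, 0.306 and 0.365 in the mutant, which overlapped.

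The structural genes of the pole had positive log2 fold changes that did not pass. Ppc89 is a core scaffold that anchors Sid4; ppc89 was at 112, 98.1 and 115 CPM in wt and 126, 129 and 115 CPM in the mutant. Mutant replicates 1 and 2 lay above all wt libraries, while mutant replicate 3 met the highest wt library at 115 CPM. It had the smallest unadjusted p of the members (0.0795; log2 0.19, SE 0.0925, edgeR adjusted p = 0.275). Without wt replicate 2, its lowest library, the log2 fold change of ppc89 was 0.11 (edgeR adjusted p = 0.434). Pcp1, the pericentrin relative that tethers γ-tubulin complexes to the pole, was encoded by the least abundant tested member: pcp1 was at 28.7, 34.7 and 24.6 CPM in wt and 37.2, 32.7 and 32.8 CPM in the mutant. Wt replicate 2 lay within the mutant range and the other wt libraries below it (log2 0.22, SE 0.147, edgeR adjusted p = 0.417). For pcp1 the log2 fold change was 0.35 without wt replicate 2, 0.11 without wt replicate 3, 0.14 without mutant replicate 1 and 0.39 without wt replicate 2 and mutant replicate 3 together (edgeR adjusted p = 0.146, 0.754, 0.761 and 0.0502). Cut12, which is needed to form a bipolar spindle, came from a transcript at 52.9, 50.4 and 53.4 CPM in wt and 59.7, 53.7 and 52.8 CPM in the mutant, where mutant replicates 1 and 2 lay above all wt libraries, replicate 2 narrowly (log2 0.09, SE 0.0915, edgeR adjusted p = 0.635). The cut12 value was 0.05 without wt replicate 2 and 0.01 without mutant replicate 1. With library totals in place of composition-corrected sizes, the median of all tested features moved to 0.13 on the log2 scale, ppc89 to 0.31 and pcp1 to 0.36, and on those totals every mutant library was above every wt library for both, still without passing (adjusted p = 0.216 and 0.268).

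Neither gene of the scaffold pair of the septation initiation network passed the test. Sid4 binds the pole through Ppc89, and Cdc11 binds Sid4 and brings the network's kinases. The sid4 transcript was at 122, 110 and 117 CPM in wt and 115, 112 and 121 CPM in the mutant, inside the wt range (log2 0.00, SE 0.0765, edgeR adjusted p = 0.996). The cdc11 transcript was at 120, 134 and 127 CPM in wt and 100, 106 and 125 CPM in the mutant. Mutant replicates 1 and 2 lay below all wt libraries and mutant replicate 3 within them (log2 −0.20, SE 0.105, edgeR adjusted p = 0.301). Without wt replicate 2 and mutant replicate 3 together, a choice made after these data were seen, cdc11 was the 1 member called, as lower (log2 −0.27, edgeR adjusted p = 0.0312; its adjusted p over all alternatives lay between 0.0312 and 0.608). That setting leaves 2 libraries per genotype. It called 20.5% of all features in either direction, and 6.17% of all features as lower. The ratio of sid4 to cdc11 was 1.57, 1.26 and 1.42 in wt, against 1.78, 1.65 and 1.49 in the mutant, which overlapped.

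**Figure D3:**
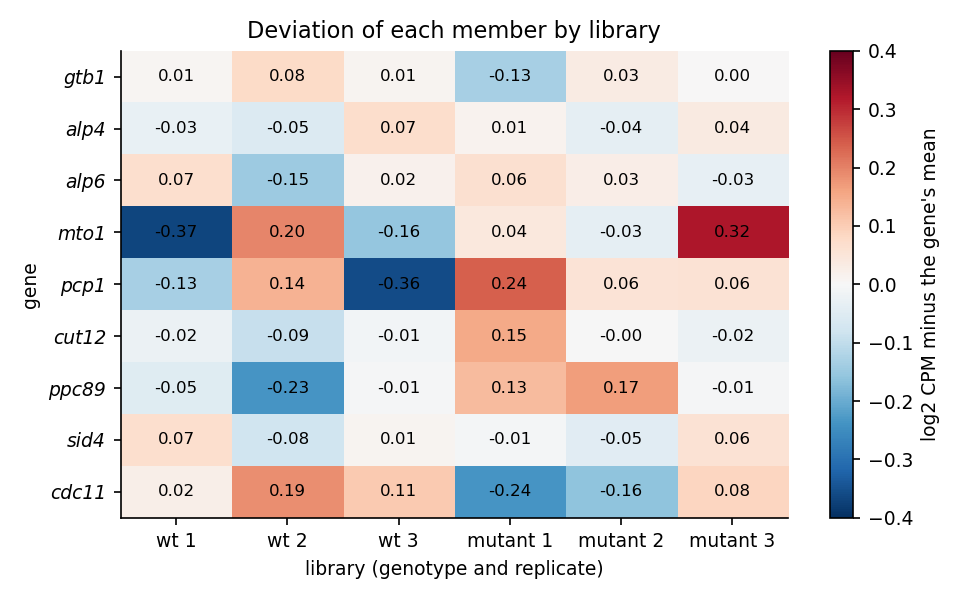
Log2 CPM of the 9 tested genes in each library minus the gene's mean over the 6 libraries; red is above and blue below the mean. The widest swings are in mto1 (−0.37 in wt replicate 1 to 0.32 in mutant replicate 3) and pcp1 (−0.36 in wt replicate 3 to 0.24 in mutant replicate 1), while alp4 stays between −0.05 and 0.07.

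Spread between libraries differed among the members. Of the 9 genes, 5 (alp4, alp6, cut12, sid4 and ppc89) had their lowest value of the 6 libraries in wt replicate 2, while gtb1 and cdc11 had their highest there. The median SD of log2 CPM within wt was 0.08 for the 9 genes and 0.15 for all tested features. Of all wt counts the members made up 0.0703%, 0.0654% and 0.0697%, and of all mutant counts 0.0820%, 0.0730% and 0.0734%; these shares of raw totals carry the same composition shift as above.

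The counts of cdc31 cannot be read as its expression. Cdc31 is centrin, the calcium-binding protein of the bridge that joins duplicating poles, and it is essential, yet the wt libraries held 2, 0 and 0 of its reads and the mutant libraries 8, 5 and 0. All but the 8 and the 5 lie under the limit of 3 counts that a count of 0 allows, no fold is given, and the gene did not enter the test. In the reference annotation 81.5% of its exonic bases, and 100% of its coding bases, lie within exons of srp68 on the opposite strand. The srp68 gene, a subunit of the signal recognition particle, also had 0 counts in all 6 libraries, with 91.5% of its exonic bases shared. The neighbouring SPCC1682.06, which shares none, had 459 to 642 counts. This pattern held across the table. Of 347 protein-coding genes whose exonic bases were all shared with other counted features, 320 (92.2%) had 0 counts in all 6 libraries, against 40 of 2183 (1.83%) with no shared base. The median wt level fell from 57.9 CPM per kb with no overlap to 32.1 at 20 to 40% overlap, 6.35 at 60 to 80% and 0.0306 at 80 to 100%. The strand setting, and how reads touching more than 1 feature were treated, were not given in the sources used here.

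**Figure D4:**
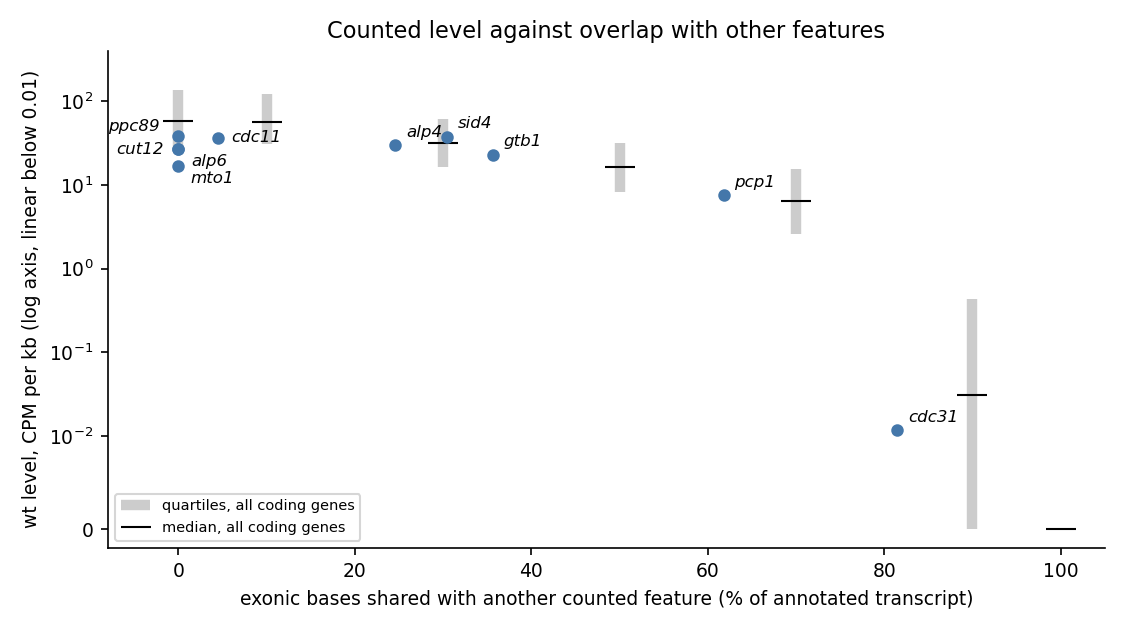
Mean wt level per kb of annotated transcript against the percentage of exonic bases that another counted feature also covers, on a log axis that is linear below 0.01. Grey bars are quartiles and black dashes medians of all protein-coding genes in 7 classes of overlap; blue points are the 10 genes. The medians drop with overlap, and pcp1 and cdc31 lie at 61.8% and 81.5%.

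The same overlap bears on 5 of the other members. It covered 61.8% of pcp1 (by pcd1 and SPNCRNA.898), 35.7% of gtb1 (by cwf12), 30.5% of sid4 (by mrpl15 and SPBC1539.02), 24.6% of alp4 (by SPNCRNA.1524) and 4.52% of cdc11 (by mug33). It covered 0% of alp6, mto1, cut12 and ppc89. In gtb1, alp4 and sid4 the shared part lies almost wholly outside the coding sequence, of which 0.224%, 1.57% and 0% is shared, whereas 62.1% of the pcp1 coding sequence is shared. Of these partners mug33, SPBC1539.02 and SPNCRNA.1524 were higher in every mutant library than in any wt library, at log2 fold changes of 0.35, 0.51 and 0.60, without passing (edgeR adjusted p = 0.112, 0.0587 and 0.334). The partner cwf12, too low to test, had 0 counts in all wt libraries and 3, 1 and 3 in the mutant. Among the flanking coding genes, gpx1, a glutathione peroxidase gene beside gtb1, was at 373 to 431 CPM in wt and 519 to 616 CPM in the mutant and did not pass (log2 0.47, adjusted p = 0.0633). Other flanking genes went the other way: utp6 beside sid4, uge1 beside alp4 and ctf18 beside alp6 were lower in every mutant library than in any wt library. Their log2 fold changes were −0.40, −0.20 and −0.12 (edgeR adjusted p = 0.173, 0.241 and 0.385). Over all tested features 16.7% were separated upward in this way and 13.8% downward. None of the tested overlapping or flanking genes was called.

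Levels per kb, described here without a test, placed all tested members below the median of the tested coding genes. Over the full annotated transcript the wt order was ppc89 (38.9 ± 3.22 CPM per kb), sid4 (37.6 ± 1.93), cdc11 (36.6 ± 2.08), alp4 (29.9 ± 1.41), cut12 (26.5 ± 0.807), alp6 (26.5 ± 2.01), gtb1 (23.0 ± 0.628), mto1 (16.6 ± 3.32) and pcp1 (7.56 ± 1.31), each as mean ± SD over 3 libraries. The ranges of ppc89, sid4 and cdc11 overlapped, as did those of cut12 and alp6; the other neighbours in this order did not overlap. On the length that no other counted feature shares, sid4 led at 54.2 ± 2.78 CPM per kb. It was followed by alp4 (39.7 ± 1.86), ppc89 (38.9 ± 3.22), cdc11 (38.3 ± 2.18) and gtb1 (35.8 ± 0.977), of which each overlapped its neighbours in the order, and then by cut12 and alp6 (26.5 each), pcp1 (19.8 ± 3.43) and mto1 (16.6 ± 3.32). The pcp1 level thus changed from 7.56 to 19.8 CPM per kb with the length used, and on the unshared length its wt range (16.6 to 23.4) overlapped that of mto1 (13.7 to 20.2). Among 4284 tested protein-coding genes on this scale, sid4 stood at the 49.4th percentile and mto1 at the 13.4th. In the mutant the order on the unshared length was the same except that ppc89 passed alp4 and gtb1 passed cdc11.

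Among genes that work beside the members, 3 were called, and 2 of these are the altered genes themselves. Over 5 lists (γ-tubulin complex accessory proteins, other spindle pole body parts, meiotic pole proteins, the septation initiation network, and tubulins with microtubule proteins) 56 genes were not members, 50 of them were tested, and 2 were called higher and 1 lower, with a median log2 fold change of 0.06, beside 2.41% called over all features. These were the 2 altered genes, csi1 (lower) and sad1 (higher, 81.3, 80.5 and 83.7 CPM in wt against 150, 160 and 148 CPM in the mutant), and fin1. Fin1, a NIMA-family kinase that binds the pole in mitosis, was at 117, 120 and 119 CPM in wt and 171, 161 and 180 CPM in the mutant (log2 0.53, SE 0.0743, edgeR adjusted p = 0.0241). The fin1 call was lost when any of wt replicates 1 and 3 and mutant replicates 1 and 2 was left out (adjusted p = 0.102 to 0.141), as was that of csi1; the sad1 call was lost without either of wt replicates 1 and 3 or without mutant replicate 2. The 6 untested genes were mzt1, kms1, hrs1, cdc14, mob1 and klp9, of which 4 shared over 80% of their exonic bases with other features. The other 2, mzt1 and mob1, were listed at 0 counts in every library, although both are essential for growth.

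Among the accessory proteins of the complex, 0 of 4 tested genes passed, with 2 positive and 2 negative values. The lowest p belonged to mto2, given above, and the next to alp16, a GCP6 relative (log2 0.15, edgeR adjusted p = 0.620). In the septation network 0 of 9 passed and 8 were positive. The network's inhibitory GTPase-activating subunit gene cdc16 was at 39.5, 39.2 and 40 CPM in wt and 48.8, 43.7 and 51.6 CPM in the mutant, without overlap (log2 0.28, SE 0.0983, edgeR adjusted p = 0.163). The polo kinase gene plo1 was at 73.9, 52.3 and 71.1 CPM in wt and 89.4, 77.1 and 75.8 CPM in the mutant (log2 0.30, edgeR adjusted p = 0.283). In the meiotic list 0 of 7 passed and 6 were positive, with spo13 and the bouquet gene bqt2 at 0.68 and 0.74 on the log2 scale (edgeR adjusted p = 0.163 and 0.172). Both were weak, at 1.36 to 3.75 CPM. Over 343 coding genes under 5 CPM per kb in wt, the median level above the wt mean was 0.536, 0.377 and 0.168 CPM per kb in mutant replicates 1, 2 and 3, and −0.116 to 0.0446 in the wt libraries. These genes were chosen by a low wt mean among features that passed the filter, which the mutant libraries alone could satisfy. Each library was set against that same wt mean, so the choice itself favours a mutant excess. The part of this excess in the weak genes' values was not tested.

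Of 20 tested tubulin and microtubule genes 0 passed, 11 were positive and 9 negative. The microtubule polymerase gene dis1 had the smallest p, at 4.29, 4 and 3.53 CPM in wt and 14, 7.97 and 6.49 CPM in the mutant (log2 1.27, SE 0.311, edgeR adjusted p = 0.0823). In the reference annotation 96.9% of the exonic bases of dis1 are shared with SPNCRNA.1132; where in dis1 its reads lie was not tested. The kinesin-8 gene klp5 was at 127, 134 and 126 CPM in wt and 153, 152 and 196 CPM in the mutant (log2 0.38, SE 0.115, edgeR adjusted p = 0.129). The α-tubulin and β-tubulin genes, picked for a closer look after their values were seen, were lower in every mutant library than in any wt library. The same was true of 13.8% of all tested features. The β-tubulin gene nda3 was at 746, 733 and 789 CPM in wt and 591, 687 and 583 CPM in the mutant (log2 −0.29, SE 0.101, edgeR adjusted p = 0.163). The α-tubulin genes nda2 and atb2 had log2 fold changes of −0.31 and −0.29 (edgeR adjusted p = 0.228 and 0.161). With library totals as the scale they were at −0.19 (nda2), −0.17 (atb2) and −0.16 (nda3), and only nda2 kept its libraries apart. Without wt replicate 2 and mutant replicate 3 together, mto2 (log2 −0.30, edgeR adjusted p = 0.0362), dis1 (1.49, adjusted p = 0.0172), klp5 (0.27, adjusted p = 0.023) and atb2 (−0.37, adjusted p = 0.0493) passed. They were among 9 of 50 tested related genes called in that setting, csi1, sad1 and fin1 included, beside 20.5% of all features. DESeq2 on all 6 libraries also called dis1 (adjusted p = 0.00444), beside 9.19% of all features.

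**Figure D5:**
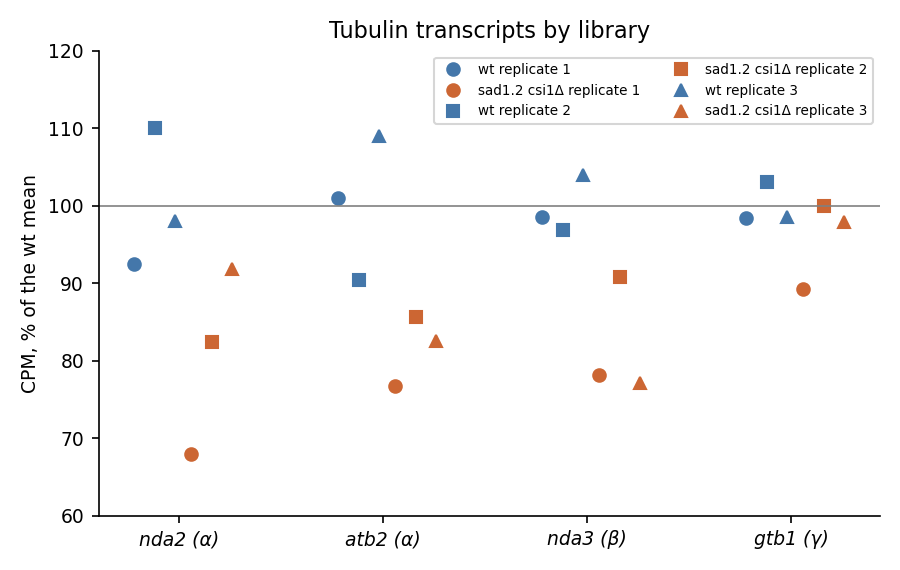
CPM of the α-tubulin genes nda2 and atb2, the β-tubulin gene nda3 and the γ-tubulin gene gtb1 in each library as a percentage of the wt mean. Mutant libraries lie at 68.0 to 91.8% for the α-tubulin and β-tubulin genes and at 89.2 to 100% for gtb1; none of these genes passed the test.

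The 190 tested coding genes of 450 to 900 CPM in wt had a median log2 fold change of −0.18, with 151 negative and 39 positive. In 64 of the 190 every mutant library lay below every wt library, as for the tubulins, and in 10 every mutant library lay above. The ratio of nda3 to gtb1 on the unshared length was 13.4, 12.6 and 14.2 in wt, against 11.7, 12.1 and 10.5 in the mutant, without overlap. It was 1 of 9 ratios computed, and with 3 libraries against 3 an exact permutation test cannot give a p under 0.1.

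For ppc89, the member of smallest p, the tested coding genes with the most alike profiles over the 6 libraries were SPCC1450.12, ats1, SPBC8E4.03, ppa3 and srb8. Their root-mean-square differences from its centred log2 CPM were 0.0253, 0.0364, 0.0369, 0.0376 and 0.0382, the smallest of 4351 genes compared, against 0.129 for the departure of ppc89 from its own mean. SPCC1450.12 was at 135, 119 and 134 CPM in wt and 148, 151 and 137 CPM in the mutant. None of these 5 passed (edgeR adjusted p from 0.259 to 0.376). As they were chosen for likeness to ppc89 over the same 6 libraries, test values near its own follow from the choice.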

How the data were processed

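For each library the authors deposited a table of raw counts. The tools named are HISAT2, HTSeq and DESeq2, with build ASM294v2, per the submitters' processing notes; versions, annotation release and strand setting were not given in the sources used here. The authors' deposited comparison table holds a mean normalized signal, log2 fold changes, a Wald score and p-values. A further 18 per-library columns of normalized values were not used. Names, lengths and overlaps came from the RefSeq annotation of ASM294v3 (6848 of 7269 identifiers matched); as builds differ, no coordinates or sequences are given. Overlap percentages therefore hold for that annotation.

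The test was edgeR 4.0.16 (R 4.3.3; robust quasi-likelihood, TMM, filterByExpr with minimum count 10 and total 15, genotype as the only term), with Benjamini-Hochberg adjustment over all 4941 tested features. CPM use TMM-scaled library sizes, and 95% intervals come from the same fit. It was tested on simulated data. Alternatives included DESeq2 1.42.0 and limma 3.58.1 (voom). The members and lists were chosen with earlier results of these data known. Named genes are all members, called genes of each list or else its 2 of smallest p, overlapping or flanking genes, and the 5 profiles most like the member of smallest p. Libraries of a genotype never agreed within sampling noise (chi-square per degree of freedom at least 9.68).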

Additional observations from a re-analysis of the deposited data

How the results depend on the processing

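Of the 9 tested members 0 were called under every alternative except 1, which was chosen after the data were seen. Without wt replicate 2 and mutant replicate 3 together 1 member (cdc11) was called, as were 9 of 50 related genes and 1025 of 5008 features (20.5%). Over all features 119 were called, and 76 with the stricter filter of 5 CPM in 3 libraries, 36 with coding genes only, 510 with DESeq2, 76 with the background subtracted, and 0 to 151 with 1 library left out. When wt replicate 1, wt replicate 3 or mutant replicate 2 was left out, edgeR called 0 (809, 678 and 932 respectively at an unadjusted p under 0.05). Of the related genes 3 were called, and 0 to 3 with 1 library left out. With replicate number as a block edgeR called 0 features (845 at an unadjusted p under 0.05), 0 members and 0 related genes. Same-numbered libraries deviated at correlations of 0.470, −0.485 and −0.564. Deviations within a genotype sum to 0, and the shared deviation of wt replicate 2 and mutant replicate 3 weighs on every pair. These correlations therefore cannot decide whether the numbers mark pairs. The sign changed only for log2 fold changes near 0 that were never called. For alp4 it was −0.0053 with DESeq2 size factors, −0.013 with DESeq2 and −0.034 without both libraries, and ran from −0.028 to 0.046 with 1 library left out. For sid4 it was −0.013 with DESeq2 size factors, −0.0072 without a filter, −0.021 with DESeq2 and −0.068 without both libraries, and ran from −0.049 to 0.033 with 1 left out. For alp6 it ran from −0.034 to 0.078 with 1 left out, and for gtb1 it was 0.057 on library totals. By coding length 7 of the 9 members changed place in the order per kb, and by unshared length, added later, 9. The cause of these differences was not tested.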
